A study of Mus musculus with 13 samples.

Results

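The genes described here are 43 genes of cell proliferation and mitosis, chosen by name as a fixed list and found in full among the 23238 gene symbols counted in mouse hippocampus and among the 24542 symbols counted in cultured glia. They were measured by RNA sequencing in 13 libraries, 7 of tissue and 6 of culture. The tissue came from the hippocampus of 3xTg mice, which carry mutant human amyloid precursor protein, presenilin and tau alleles, and the labels give amyloid beta as the treatment of every tissue library. In 4 tissue libraries the virus vector AAV9 delivered the transcription factors Nurr1 (encoded by Nr4a2) and Foxa2, a pair abbreviated N+F, and in 3 the AAV9 was a control. The culture libraries were glia of ICR mouse pups taken at postnatal day 1, from hippocampus and from cortex, with 1 library for each region and condition. The conditions were N+F lentivirus with amyloid beta, control lentivirus with amyloid beta (the amyloid beta control) and control lentivirus with no amyloid beta (untreated). The labels give no promoter for the vectors, no age for the 3xTg mice and no statement that replicates came from separate animals, so tissue p-values measure the spread between these libraries, which may be technical.

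A cell that divides passes from G1 into S phase under cyclins D and E, which free the E2F transcription factors, and E2F turns on the genes that license and copy DNA. Cyclins A and B with the kinase Cdk1 then drive mitosis, where kinetochores join chromosomes to the spindle, a checkpoint watches that attachment, and motor and scaffold proteins finish cytokinesis. Most neurons of the adult brain have left the cycle, while stem cells of the dentate gyrus, glial precursors and cultured astrocytes still divide, and many of these genes are used as marks of dividing cells. The list holds 6 roles: 4 G1/S genes, 11 genes of DNA replication and nucleotide synthesis, 8 G2/M cyclins and mitotic kinases, 9 genes of the centromere, kinetochore and checkpoint, 9 of spindle and cytokinesis, and 2 chromosome proteins, Mki67 and Top2a.

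Several libraries stood apart from their labels. Both untreated glia libraries carried markers of other brain cells, since in CPM, a count divided by the total of its library and rescaled, Snap25, a neuronal synapse protein, stood at 2093 CPM in hippocampal and 2709 CPM in cortical glia, against at most 1.42 CPM in the 4 cultures with amyloid beta. Of 8 neuron markers 7 were at least 2-fold lower in the amyloid beta control of each region than in the untreated library, as were 7 of 7 oligodendrocyte markers. The cortical N+F library carried fibroblast collagens, with Col3a1 at 2033 CPM against 1.96 CPM in its amyloid beta control and Lum at 113 CPM against a count of 0 there. The 8 mural and fibroblast markers summed to 9117 CPM in cortical N+F glia against 496 CPM in the cortical amyloid beta control, and to 1346 CPM in hippocampal N+F glia against 1290 CPM in the hippocampal amyloid beta control. Markers of other cells also differed in the cortical N+F library. Of 7 oligodendrocyte markers 6 were at least 2-fold higher than in its amyloid beta control, with Mbp at 179.5 against 0.873 CPM and a sum of 471 against 172 CPM, while in hippocampal glia the sum was 257 CPM with N+F against 299 CPM. Of 7 oligodendrocyte precursor markers 4 were higher and 2 lower in cortical N+F glia, with a sum of 299 against 447 CPM, and 7 endothelial markers summed to 74.1 against 8.18 CPM, of which Cdh5 made up 49.9 against 0.181 CPM. In culture the delivered genes were higher with N+F than in the amyloid beta control, where Nr4a2 stood at 488 CPM in hippocampal N+F glia against 3.35 CPM in its amyloid beta control, and at 36.9 CPM in cortical N+F glia against 5.14 CPM. Untreated glia had 58.3 CPM of Nr4a2 in hippocampal and 19.0 CPM in cortical cultures, so the cortical N+F level lay below the hippocampal untreated one. Foxa2 had 8482 and 1059 counts in hippocampal and cortical N+F glia and 0 in the 4 other cultures. In tissue the delivered genes were not higher by test, since Nr4a2 had 27.0 ± 4.85 TMM-scaled CPM with N+F and 31.5 ± 12.7 in controls (SD, n = 4 and 3; edgeR adjusted p = 0.872), and Foxa2, below the count filter, had 26, 5, 1 and 6 counts with N+F against 5, 1 and 1. Of the 43 members 9 overlap a coding gene on the opposite strand in GRCm38.p6 (Ccnd1, Ccne2, Mcm7, Tk1, Ccna2, Cdc20, Kif20a, Nusap1 and Prc1), and since no source used here says whether counting used strand, reads of the partners cannot be told apart. Totals ran from 10194437 to 25139406 counts in tissue and from 52189025 to 78273121 in culture.

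Genes of this list are known targets of E2F, whose sites sit in promoters of S phase genes, and of the DREAM and MuvB complexes, which bind the cell cycle homology region (CHR), often downstream of CCAAT boxes bound by NF-Y, in G2/M genes. Promoters of 36 of the 43 genes were found in a RefSeq-derived table (build GRCm38.p6), and the 250 bases before each start were searched on both strands for TTTGAA or TTTAAA (CHR), for CCAAT, and for the E2F words TTTGGCGC, TTTCGCGC, TTTCCCGC, TTTGCCGC, TTTGGCGG and TTTCCCGG. Words of different kinds or strands can overlap, and each was counted by itself. CHR words were in 16 of the 36 promoters (44.4%) against 25.2% of all 32851 promoters in the table. CCAAT was in 26 (72.2%) against 33.8%, and an E2F word in 6 (16.7%) against 3.22%. The shares are not fully alike, since members have 1 promoter per gene and the share of all promoters counts every promoter of a gene. For 31 of the 36, bases just after the start were found near the beginning of a known transcript of the gene, and for the rest they were not. By role, a CHR word was in 5 of 6 promoters of the G2/M cyclins and kinases and in both chromosome protein promoters, and in 3 of 10 replication, 3 of 9 centromere and checkpoint and 2 of 7 spindle gene promoters. An E2F word was in 4 of 10 replication gene promoters, in 2 of 6 of the G2/M cyclins and kinases, and in 0 of the 9 centromere and checkpoint and 7 spindle gene promoters. A match is only a run of letters. The 170 bases before the start of 5 genes are printed. They were picked by the sign of their log2 ratios of N+F over the amyloid beta control in culture. Cdk1, Mki67 and Top2a were positive in both regions, and Mcm5 and Cdc6 were negative in cortical glia. Among genes not printed, Mcm6 and Birc5 hold E2F words and were positive in both regions. Kif11 holds a CHR word and was negative in cortical glia. Of the 43 members 33 were positive in both regions, and a link of words to ratios was not tested. CHR, CCAAT and E2F words are in capitals, all read 5′ to 3′ on the gene's own strand.
Cdk1: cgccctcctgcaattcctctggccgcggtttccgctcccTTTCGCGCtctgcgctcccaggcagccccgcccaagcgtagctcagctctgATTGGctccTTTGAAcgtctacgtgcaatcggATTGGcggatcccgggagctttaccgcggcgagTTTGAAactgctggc
Mki67: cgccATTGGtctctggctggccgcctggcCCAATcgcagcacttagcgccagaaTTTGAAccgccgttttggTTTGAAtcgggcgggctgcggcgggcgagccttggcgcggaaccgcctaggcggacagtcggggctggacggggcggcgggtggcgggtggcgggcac
Top2a: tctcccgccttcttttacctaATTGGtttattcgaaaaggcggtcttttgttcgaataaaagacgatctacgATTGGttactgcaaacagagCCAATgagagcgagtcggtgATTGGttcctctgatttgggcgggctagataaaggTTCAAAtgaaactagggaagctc
Mcm5: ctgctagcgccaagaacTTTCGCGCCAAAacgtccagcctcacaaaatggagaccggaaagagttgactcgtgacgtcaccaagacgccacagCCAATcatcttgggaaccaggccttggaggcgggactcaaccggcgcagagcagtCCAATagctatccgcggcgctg
Cdc6: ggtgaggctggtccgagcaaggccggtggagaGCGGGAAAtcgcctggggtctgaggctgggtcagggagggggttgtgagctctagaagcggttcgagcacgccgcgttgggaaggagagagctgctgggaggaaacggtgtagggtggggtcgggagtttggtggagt
The Cdk1, Mki67 and Top2a stretches lie on the minus strand at chr10:69352913-69353082, chr7:135716380-135716549 and chr11:99024190-99024359, and those of Mcm5 and Cdc6 on the plus strand at chr8:75109339-75109508 and chr11:98907981-98908150. Cdk1 and Mki67, the mitotic kinase and the proliferation antigen Ki-67, hold CHR words within 170 bases of the start, and Top2a holds one 17 bases before it. Cdk1 also holds 1 E2F word, 123 bases before the start. In Mcm5, a subunit of the replicative helicase, 2 E2F words overlap on opposite strands, and 1 CHR word lies 215 bases before the start, outside the stretch printed. Cdc6, which loads that helicase, holds 1 E2F word and no CHR or CCAAT word.

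The tissue comparison asked whether these genes differed in 3xTg hippocampus after N+F. Of the 29 members that passed the count filter, edgeR called 0 higher and 0 lower at an adjusted p under 0.05. Of all 15523 genes tested 0.11% were called, with 1 higher (0.00644%) and 16 lower (0.103%). At an unadjusted p under 0.05 there were 2 members, Cenpa and Ccnd1, where 8.46% of all genes had such a p, and DESeq2 also called 0 (0.972% of genes) with 2 at an unadjusted p under 0.05 (8.21% of genes). Of the 29, 15 had positive and 14 negative log2 fold changes, with a median of 0.00 against -0.00 over all genes. In the same 2 genes, Cenpa and Ccnd1, all N+F libraries lay below all controls, where groups did not overlap in 8.11% of all genes, N+F lying below in 4.19% and above in 3.92%. The log2 fold changes of the 29 ran from -1.22 to 0.97.

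Cenpa, the histone H3 variant that marks centromeres, had 0.703, 1.07, 0.7903 and 0.480 TMM-scaled CPM in the N+F libraries, against 2.18, 1.75 and 1.34 in controls. Every N+F library lay below every control, at levels of few counts. The log2 fold change was -1.22 ± 0.43 (SE; edgeR adjusted p = 0.427). Ccnd1, cyclin D1, had 13.5, 14.8, 15.6 and 16.1 TMM-scaled CPM with N+F, against 17.7, 26.5 and 16.1 in controls. The N+F libraries were again all lower, although the highest of them and control 3 differed by less than the rounding shown. Its log2 fold change was -0.42 ± 0.18 (SE; edgeR adjusted p = 0.561). E2f1, the founding E2F factor, had the next lowest p, with 121, 66.7, 70.8 and 88.4 CPM with N+F against 87.4, 133 and 137 in controls (-0.46 ± 0.21; edgeR adjusted p = 0.605). Its groups overlapped, N+F 1 and N+F 4 lying above control 1.

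Both chromosome proteins had negative log2 fold changes, -0.80 for Mki67 and -0.46 for Top2a. Of the 7 spindle and cytokinesis genes tested 5 were positive and 2 negative. Mki67 had 1.81, 2.86, 1.28 and 0.880 CPM with N+F against 2.72, 2.84 and 3.40 in controls, and the N+F mean was 1.71 ± 0.86 against 2.99 ± 0.36 (SD, n = 4 and 3). N+F library 2 lay among the controls and the other 3 lay below, and the difference did not pass (log2 fold change -0.80 ± 0.41, edgeR adjusted p = 0.653). Top2a, the topoisomerase that untangles replicated DNA, had 2.41, 1.43, 0.296 and 0.07998 CPM with N+F against 0.967, 1.59 and 1.82. Hmmr, a spindle assembly factor, had a positive value, with 1.61, 2.77, 0.889 and 2.80 CPM with N+F against 1.00, 1.00 and 1.11 in controls (log2 fold change 0.97 ± 0.46, edgeR adjusted p = 0.612). Nusap1, of the same role, had a negative value, with 0.301, 1.16, 0.198 and 0.560 CPM with N+F against 1.04, 1.00 and 1.58 in controls (log2 fold change -1.08 ± 0.57, edgeR adjusted p = 0.670). The groups overlapped in each of these genes.

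The replication genes did not pass the test either, and many mitotic genes were too low to enter it. Mcm2, a helicase subunit, had 2.61, 5.81, 2.96 and 2.64 CPM with N+F against 3.22, 3.26 and 3.08 in controls. Mcm5 had 4.02, 2.33, 5.83 and 3.76 CPM with N+F against 2.33, 3.26 and 3.16. Pcna, the sliding clamp of DNA polymerase, had 19.1, 23.3, 21.6 and 19.2 CPM with N+F against 26.6, 20.1 and 24.8. All 3 genes had overlapping groups, and their log2 fold changes were 0.14 ± 0.34, 0.46 ± 0.34 and -0.20 ± 0.15 (SE), with edgeR adjusted p of 0.952, 0.801 and 0.801. Ccne1, cyclin E1, had 9.54, 10.02, 9.58 and 7.52 CPM with N+F against 10.2, 9.52 and 7.90 in controls. The spindle motor Kif11 had 6.03, 3.76, 4.25 and 4.24 CPM with N+F against 2.79, 4.93 and 4.51. Both genes had overlapping groups. The 14 members below the filter were Cdc6, Rrm2, Tk1, Ccnb1, Ccnb2, Cdk1, Aurka, Aurkb, Ndc80, Bub1, Ttk, Cdc20, Kif23 and Ect2. Their counts ran from 0 to 32 per library. These raw counts are not scaled for depth. Control 1, the first control listed, had 25139406 counts in total, against 10194437 to 12571452 in the other tissue libraries. Cdk1 had 1, 9, 4 and 8 counts with N+F against 13, 4 and 8 in controls, the mitotic cyclin Ccnb1 had 1, 2, 0 and 10 against 3, 5 and 1, and the checkpoint kinase Bub1 had 7, 0, 7 and 5 against 7, 9 and 10. The chromosomal passenger kinase Aurkb had 3, 3, 0 and 0 against 10, 6 and 2, and Rrm2, a ribonucleotide reductase subunit, 7, 10, 3 and 9 against 8, 11 and 9. Ect2, which sets off cytokinesis, had 1, 1, 2 and 1 counts with N+F against 11, 6 and 4. In TMM-scaled CPM, control 1 had 0.465 for Cdk1, 0.107 for Ccnb1 and 0.251 for Bub1, all within the range of the N+F libraries. It had 0.286 for Rrm2, below every N+F library, and 0.358 for Aurkb and 0.394 for Ect2, above every N+F library. With so few counts these 14 were not tested.

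Beside these values, in the same libraries mural and fibroblast markers summed to 41.4 to 62.1 CPM with N+F against 62.1 to 367 in controls, and endothelial markers to 28.7 to 46.3 against 41.5 to 68.4. Neural progenitor and neuroblast markers summed to 91.2 to 108 CPM with N+F against 72.7 to 107, and 7 oligodendrocyte precursor markers to 109 to 150 with N+F against 145 to 178, with 6 negative log2 fold changes, a median of -0.28 and Sox10 below all controls in every N+F library (edgeR adjusted p = 0.455). Choroid plexus markers varied within groups, from 163 to 3935 with N+F and from 1132 to 2855 in controls. The part of these cells in the values of the list was not tested, and fewer cells of a type and less RNA per cell cannot be told apart in tissue.

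**Figure D1:**
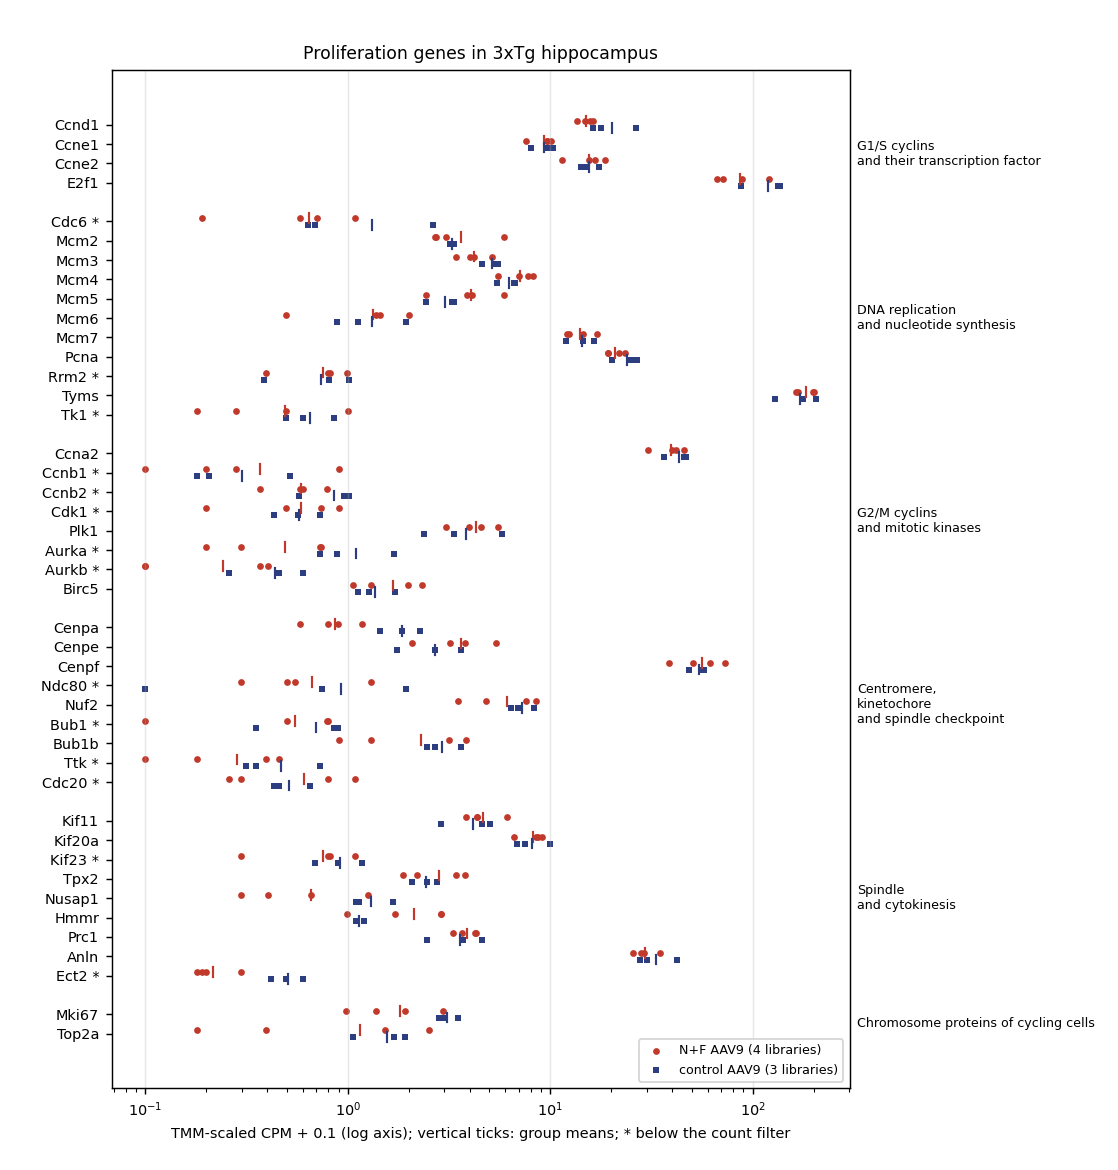
TMM-scaled CPM of the 43 members in 4 N+F and 3 control hippocampus libraries of 3xTg mice, by role, on a log axis. Points are libraries; N+F lies below all controls in Cenpa and Ccnd1, and other tested members overlap.

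The amyloid beta comparison in culture set the amyloid beta control against the untreated library of the same region. Log2 ratios were positive in 39 members in hippocampal and 38 in cortical glia, in a setting where the untreated libraries also carried neurons, oligodendrocytes and other cells, as given above. In hippocampal glia 25 of 43 members were at least 2-fold higher, where 21% of 14890 genes were, and 1 was lower, where 25.6% were. In cortical glia 18 were higher, where 19.8% of 14786 genes were, and 2 were lower, where 25.4% were. In both regions together 18 were higher (16.6% of genes) and 1 was lower (21.5%). The members' median log2 ratio of CPM + 1 was 1.21 in hippocampal and 0.84 in cortical glia, against -0.03 and -0.01 over all genes. Genes that hold the cycle back were higher too. Of 14 such cell cycle brakes 10 were at least 2-fold higher in hippocampal and 9 in cortical glia, and 1 was lower in each. Their medians were 1.86 and 1.81. The counting interval of the CPM ratio lay above 1 in 38 members in hippocampal glia (46.1% of genes) and below 1 in 2 (48.1%), and in cortical glia above 1 in 34 (45.7%) and below 1 in 4 (47.3%). With 1 library per condition these differences have no replicate check, and the intervals cover counting error only.

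By the mean of both regions' log2 ratios of CPM + 1, the highest were Ccnd1, Cdk1 and Prc1. Ccnd1 had 1062 CPM in the hippocampal amyloid beta control against 49.6 CPM in the untreated library, a ratio of 21.4 (95% counting interval 20.7 to 22.2). In cortical glia it had 917 CPM against 38.5 CPM, a ratio of 23.8 (22.8 to 24.9). The intervals of the regions did not overlap, and the difference between regions was not tested. Cdk1 had 22.5 CPM against 1.04 CPM untreated in hippocampal glia and 16.7 against 0.402 CPM in cortical glia. Prc1, which bundles the spindle midzone, had 31.6 against 1.92 CPM in hippocampal and 18.5 against 1.76 CPM in cortical glia. For the replication gene Rrm2 the values were 35.7 against 2.55 CPM in hippocampal and 16.8 against 2.91 CPM in cortical glia, and for Top2a 33.9 against 3.06 and 21.2 against 2.91 CPM. Mki67 had 9.05 against 2.55 CPM in hippocampal and 5.68 against 1.80 CPM in cortical glia, the smaller ratio of the 2 chromosome proteins. Ccnb1 had 6.08 against 0.459 CPM in hippocampal and 4.68 against 0.651 CPM in cortical glia, Aurkb 3.63 against 0.311 and 2.11 against 0.287 CPM, and Bub1 2.58 against 0.281 and 1.48 against 0.479 CPM.

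By the same mean, the lowest were Anln, Ccne2 and Ccne1, although in cortical glia alone Cenpa, at 1.33 against 2.53 CPM, lay below Ccne1. Anln, a scaffold of the cytokinetic ring that myelinating cells also express, had 14.6 CPM in the hippocampal amyloid beta control against 52.9 CPM untreated, and 10.03 against 29.0 CPM in cortical glia. It was the one member at least 2-fold lower in both regions. Oligodendrocyte markers summed to 299 CPM in the hippocampal amyloid beta control against 9066 CPM untreated and to 172 against 7636 CPM in cortical glia, and their part in Anln was not tested. Ccne2, cyclin E2, had 3.13 against 3.82 CPM in hippocampal and 2.54 against 6.09 CPM in cortical glia, and Ccne1 9.82 against 10.6 and 8.78 against 13.4 CPM. Pcna had 43.5 against 36.5 CPM in hippocampal and 42.5 against 40.5 CPM in cortical glia. Kif11 had 6.62 against 2.75 CPM in hippocampal and 5.52 against 2.30 CPM in cortical glia, Mcm2 19.8 against 7.66 and 13.7 against 4.60 CPM, and Mcm5 7.68 against 4.97 and 7.56 against 6.55 CPM. For Mcm5 the cortical sign depended on the sum of its lines in the table, since the largest line alone gave a log2 ratio of -0.14 against 0.18 for the sum.

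**Figure D2:**
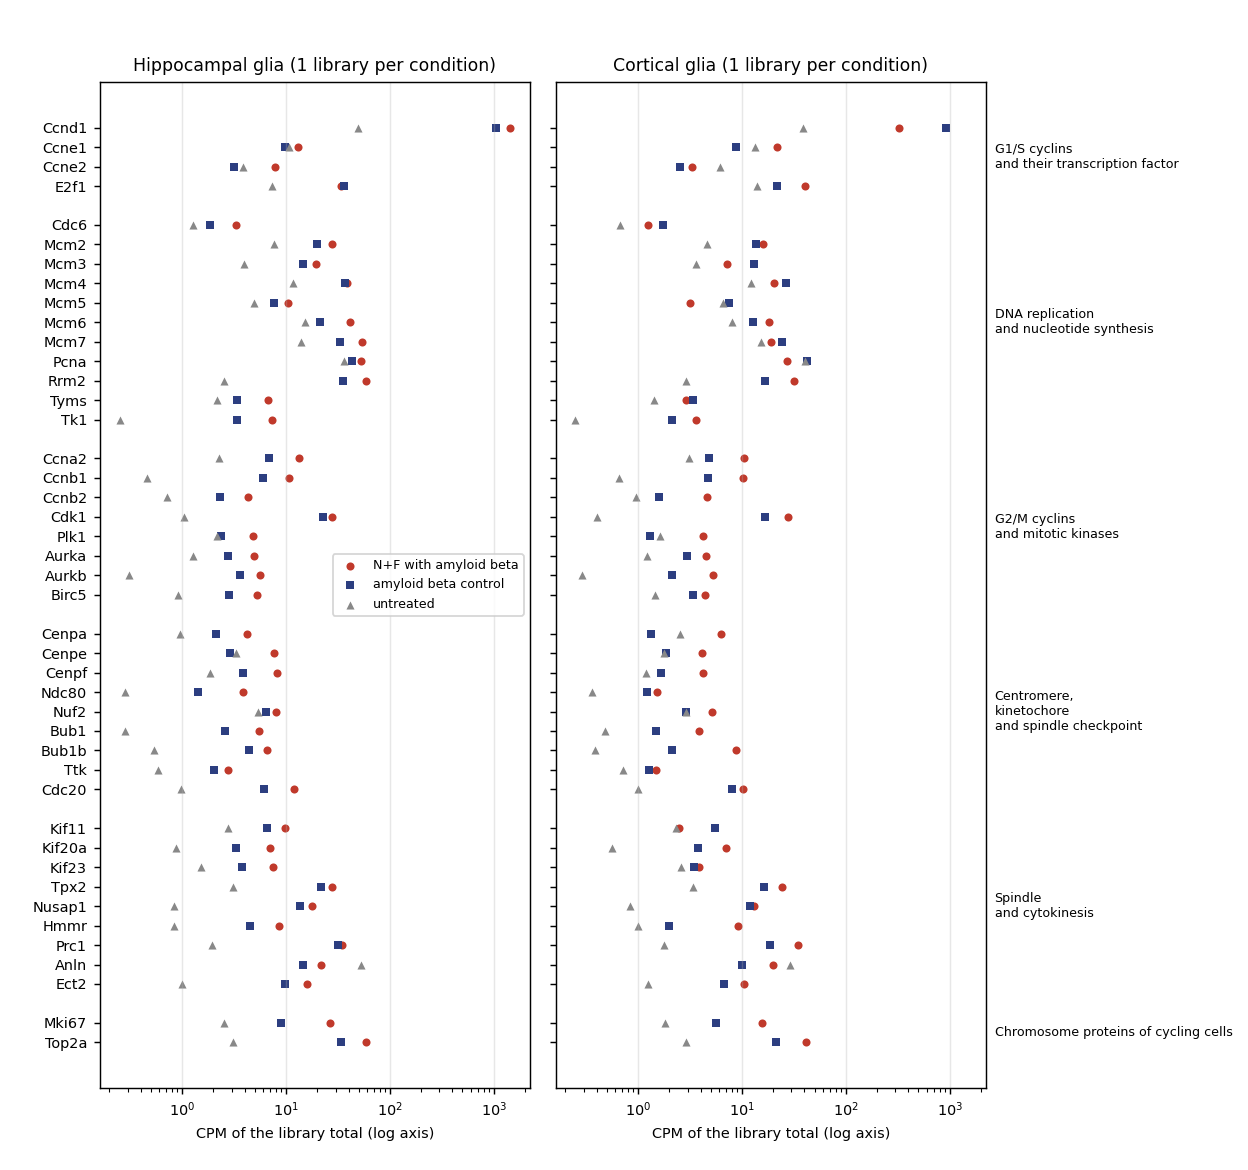
CPM of the 43 members in 6 culture libraries, by region, on a log axis, with 1 library per condition. In hippocampal glia Cdk1 stood at 27.6 CPM with N+F, 22.5 in the amyloid beta control and 1.04 untreated.

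In culture, N+F libraries were compared with the amyloid beta control of their own region. The amyloid beta control library serves both this and the previous comparison, so they are not independent and their values stand side by side only. Members past 2-fold are counted here on the scale of CPM + 1. In hippocampal glia 4 members were at least 2-fold higher, Mki67, Ccne2, Cenpe and Ndc80, where 5.6% of 13814 genes were, and 0 were lower, where 0.767% were. In cortical glia 8 were higher, Mki67, Hmmr, Cenpa, Bub1b, Ccne1, Plk1, Ccnb2 and Aurkb, where 12.9% of 13999 genes were, and 2 were lower, Ccnd1 and Mcm5, where 15.1% were. In both regions Mki67 was the 1 member past 2-fold (2.07% of genes), and 0 were lower in both (0.119%). Counts past 2-fold depended on the CPM added, as given below, and on scaling. TMM scaling gave 2 higher in hippocampal glia, 18 higher and 1 lower in cortical glia, and 2 higher in both regions.

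The median log2 ratio of the 43 was 0.69 in hippocampal and 0.58 in cortical glia, against 0.12 and -0.16 over all genes, and TMM scaling moved the median of all genes by -0.12 and 0.17. The counting interval of the CPM ratio lay above 1 in 42 members in hippocampal glia, where it did in 53.2% of genes, and below 1 in E2f1, where it did in 25.9% of genes. In cortical glia it lay above 1 in 30, where it did in 37.9% of genes, and below 1 in 8, where it did in 52.9%.

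By role, the medians of mitotic genes were positive in both regions and those of replication genes had opposite signs. The 8 G2/M cyclins and kinases had a median log2 ratio of 0.70 in hippocampal and 0.98 in cortical glia, all 8 positive in each, and the 9 centromere and checkpoint genes had 0.83 and 0.85, all 9 positive in each. The 9 spindle and cytokinesis genes had 0.55 and 0.58, with 9 and 8 positive. The 11 replication and nucleotide genes had 0.59 in hippocampal glia, 11 positive, and -0.29 in cortical glia, 4 positive. With TMM scaling these were 0.49 and -0.16, with 10 and 4 positive.

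Mki67 had 26.5 CPM in hippocampal N+F glia against 9.05 CPM in the amyloid beta control, a ratio of 2.93 (95% counting interval 2.68 to 3.21), and 15.8 against 5.68 CPM in cortical glia, a ratio of 2.78 (2.46 to 3.14). Top2a had 59.0 against 33.9 CPM in hippocampal and 41.4 against 21.2 CPM in cortical glia. Both chromosome proteins were higher with N+F in each region. Hmmr had 8.58 against 4.48 CPM in hippocampal glia and 9.21 against 1.99 CPM in cortical glia. Cenpa had 4.18 against 2.10 CPM in hippocampal and 6.31 against 1.33 CPM in cortical glia. Cdk1 had 27.6 against 22.5 CPM in hippocampal and 27.6 against 16.7 CPM in cortical glia. Ccnb1 had 10.6 against 6.08 CPM in hippocampal and 10.2 against 4.68 CPM in cortical glia, Aurkb 5.66 against 3.63 and 5.29 against 2.11 CPM, and Bub1 5.56 against 2.58 and 3.88 against 1.48 CPM. Cdk1, Ccnb1, Aurkb and Bub1 were higher with N+F in both regions, with larger ratios in cortical glia. The Bub1 values rest on several lines of the table, and its largest line alone gave log2 ratios of 0.08 and 0.27, against 0.87 and 0.98 for the sum.

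Ccnd1 split the regions. It had 1448 CPM in hippocampal N+F glia against 1062 CPM in the amyloid beta control, a ratio of 1.36 (95% counting interval 1.35 to 1.38). In cortical glia it had 323 CPM against 917 CPM, a ratio of 0.352 (0.347 to 0.357). Mcm5 had 10.4 against 7.68 CPM in hippocampal glia and 3.19 against 7.56 CPM in cortical glia, and Mcm3 19.4 against 14.7 and 7.17 against 13.1 CPM. Kif11 had 9.89 against 6.62 CPM in hippocampal glia and 2.48 against 5.52 CPM in cortical glia, the 1 spindle gene with a negative log2 ratio there. Pcna had 52.7 against 43.5 CPM in hippocampal and 27.4 against 42.5 CPM in cortical glia, while Mcm2 had 27.8 against 19.8 and 15.97 against 13.7 CPM. Rrm2 had 59.0 against 35.7 CPM in hippocampal and 31.9 against 16.8 CPM in cortical glia, and Ccne1 13.1 against 9.82 and 21.7 against 8.78 CPM, both higher with N+F in each region. The difference between regions was not tested, with 1 library in each.

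**Figure D3:**
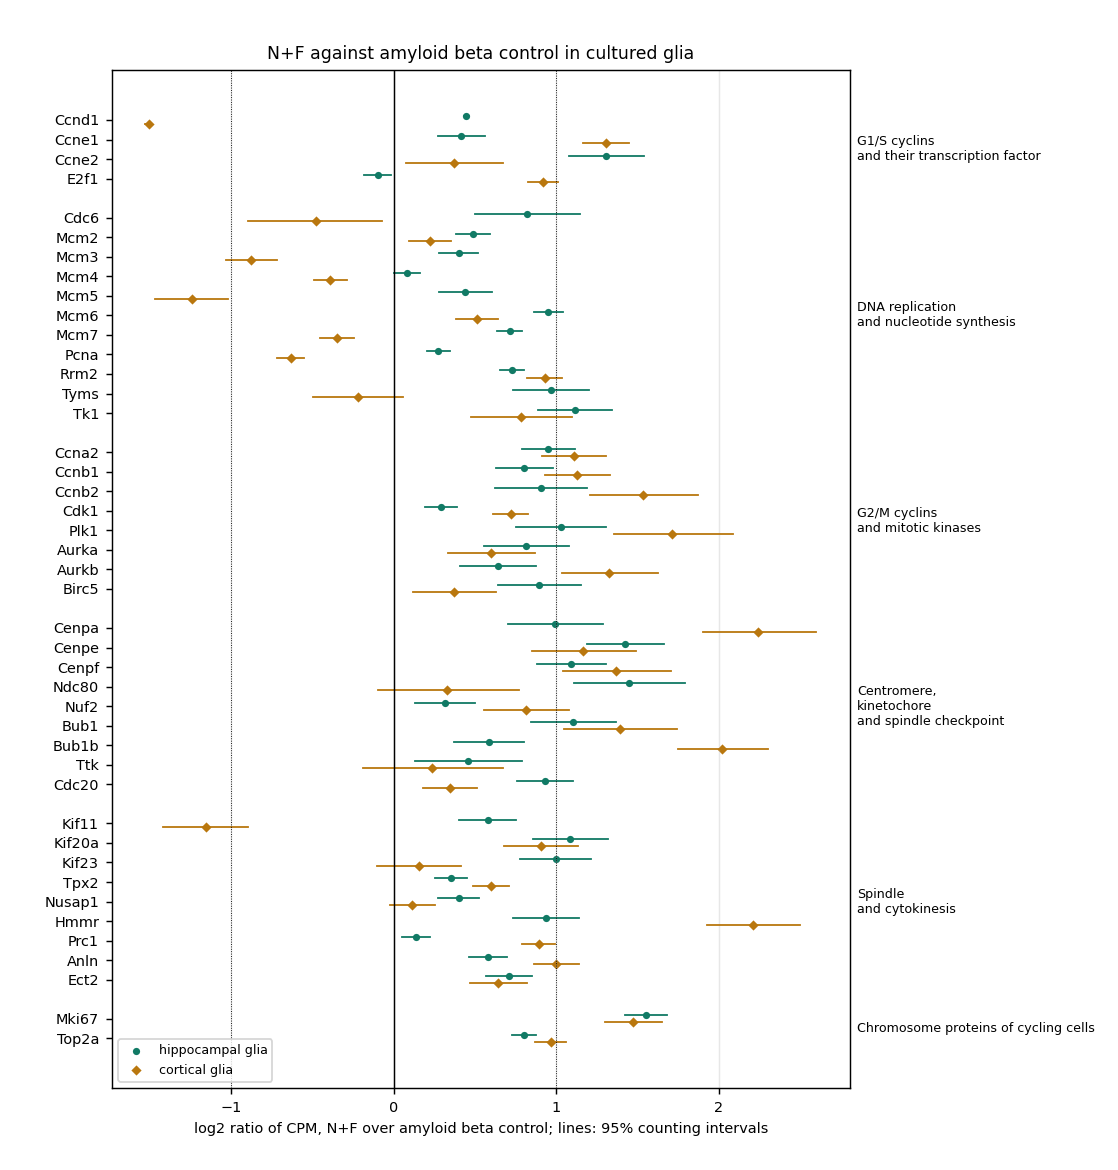
Log2 ratio of CPM, N+F over the amyloid beta control, for each of the 43 members, with counting intervals and 1 library per condition. Hippocampal and cortical glia are both shown. The values given here are log2 ratios of CPM + 1, as in the text, and differ from the points drawn. On that scale Mki67 has 1.45 in hippocampal and 1.33 in cortical glia, and Ccnd1 has 0.45 in hippocampal and -1.50 in cortical glia.

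Replication genes outside the list also had medians of opposite sign in the regions, and mitosis genes outside it had positive medians in both. The medians of all genes had opposite signs too, at 0.12 in hippocampal and -0.16 in cortical glia, and -0.00 and 0.01 with TMM scaling. Of 32 other DNA replication genes 31 had positive ratios in hippocampal glia, with a median of 0.44, and 7 in cortical glia, with a median of -0.26. With TMM scaling these were 30 with a median of 0.32 and 12 with a median of -0.09. The lowest in cortical glia were the flap endonuclease Fen1, at 3.87 CPM with N+F against 15.2 CPM, and the clamp loader subunit Rfc5, at 1.95 against 6.46 CPM. Of 40 other mitosis genes 37 and 30 were positive, with medians of 0.51 and 0.55, among them Ube2c, at 4.15 against 2.14 CPM in hippocampal and 9.02 against 2.08 CPM in cortical glia. Cyclin D2 (Ccnd2) had the split of Ccnd1, with 1752 against 1089 CPM in hippocampal and 532 against 1391 CPM in cortical glia. Of 14 cell cycle brakes the median was 0.06 in hippocampal glia, with 9 positive, and 1.22 in cortical glia, with 11 positive. TMM scaling turned the hippocampal median to -0.07, with 5 positive, and gave 1.39 in cortical glia, with 13 positive. The kinase inhibitor Cdkn1a (p21) had 595 against 843 CPM in hippocampal and 1347 against 183 CPM in cortical glia. Cdkn2b (p15) had 124 against 240 CPM in hippocampal and 364 against 114 CPM in cortical glia, and Cdkn1c (p57) 2.38 against 1.499 and 20.9 against 0.741 CPM. Btg1, the 1 brake at least 2-fold higher in both regions, had 135 against 63.6 CPM in hippocampal and 208 against 56.2 CPM in cortical glia. Beside these cortical values stand the fibroblast, oligodendrocyte, precursor and endothelial markers of the cortical N+F library given above, whose part in them was not tested. In tissue edgeR called 0 of the 67 tested genes of these 4 lists, where 0.11% of all genes were called, with 3 at an unadjusted p under 0.05, where 8.46% of all genes had one. DESeq2 called 1, Hjurp, the chaperone that loads Cenpa at centromeres (DESeq2 adjusted p = 0.0164), where it called 0.972% of the genes it gave an adjusted p, with 3 at that unadjusted p, where 8.21% of genes had one. Hjurp had 37.0 CPM with N+F against 19.96 in controls on average (log2 fold change 0.90 ± 0.21 SE, edgeR adjusted p = 0.221).

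**Figure D4:**
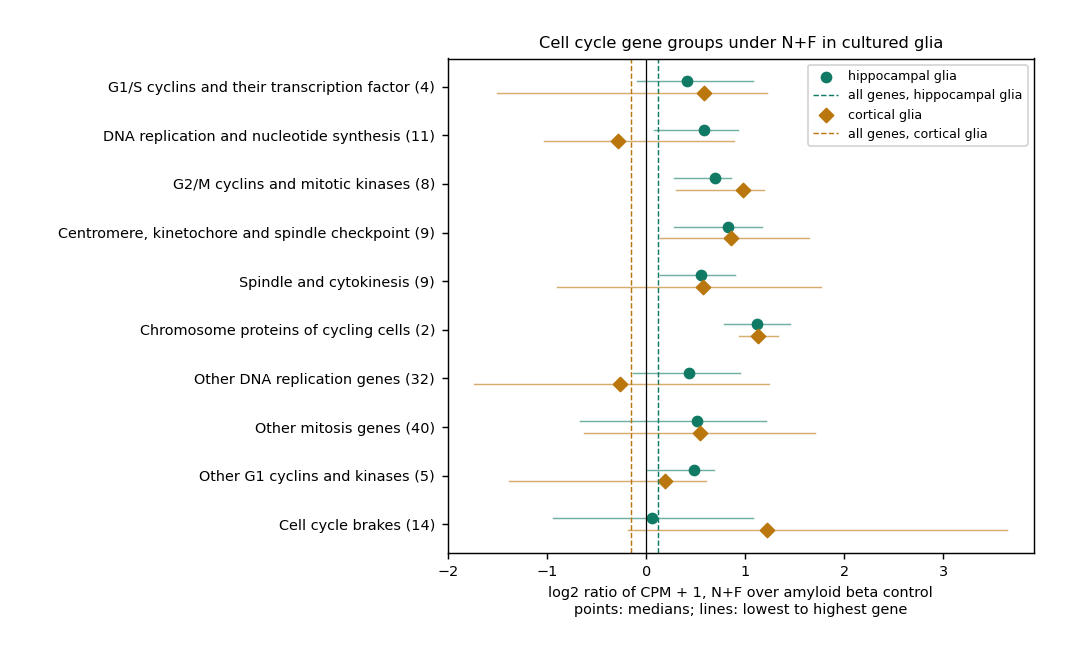
Median log2 ratio of CPM + 1, N+F over the amyloid beta control, for each role and for the other pathway lists in hippocampal and cortical glia. Lines run from the lowest to the highest gene, dashed lines are the medians of all genes, and replication genes are at 0.59 in hippocampal and -0.29 in cortical glia.

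Between regions of the same condition, hippocampal glia were set against cortical glia. Untreated libraries had 0 members at least 2-fold higher and 0 lower (3.17% and 2.3% of genes), with a median log2 ratio of 0.00, and their intervals lay above 1 in 12 (34.7%) and below 1 in 9 (33.3%). In the amyloid beta control 1 was higher, Rrm2, at 35.7 CPM in hippocampal against 16.8 CPM in cortical glia (4.17% of genes), and 0 lower (2.13%), with a median of 0.41 and intervals above 1 in 32 (41.2%) and below 1 in 1 (39.1%). With N+F 7 were higher on the CPM + 1 scale (17.3% of genes), Ccnd1, Ccne2, Mcm3, Mcm5, Mcm6, Mcm7 and Kif11, and 0 lower (7.06%). The median was 0.56 against 0.33 over all genes. The intervals lay above 1 in 30 (62.8%) and below 1 in 4, Ccne1, E2f1, Cenpa and Bub1b (28.1%). TMM scaling brought that median to 0.27. In the N+F libraries Mcm7 stood at 54.3 CPM in hippocampal against 19.1 CPM in cortical glia, and Kif11 at 9.89 against 2.48 CPM. Bub1b, a checkpoint protein, lay the other way, with 6.58 CPM in hippocampal against 8.70 CPM in cortical glia, as did Ccne1, at 13.1 against 21.7 CPM, and Cenpa, at 4.18 against 6.31 CPM. In the amyloid beta control, by the log2 ratio of CPM + 1, the kinetochore genes Nuf2 and Cenpf came after Rrm2, at 6.49 against 2.91 and 3.88 against 1.65 CPM, although both had larger ratios of CPM, and the lowest were in Cdc20, the activator of anaphase, at 6.21 against 8.05 CPM, Birc5 (survivin), at 2.84 against 3.39 CPM, and the motor Kif20a, at 3.33 against 3.79 CPM. Untreated, the highest were Mcm6, at 15.4 against 8.07 CPM, Anln, at 52.9 against 29.0 CPM, and Nuf2, at 5.37 against 2.91 CPM. The lowest there were Cenpa, at 0.947 against 2.53 CPM, E2f1, at 7.35 against 14.1 CPM, and Ccne2, at 3.82 against 6.09 CPM, none past 2-fold on the CPM + 1 scale. Per kb of exon, the most abundant member in hippocampal N+F glia was Ccnd1, at 308 CPM per kb, followed by Pcna at 21.9 and Rrm2 at 21.3, and the lowest was Cenpf, a kinetochore protein, at 0.536.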

How the data were processed

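Gene counts were deposited by the authors as 2 tables of whole-number counts per gene symbol, 1 for tissue and 1 for culture, and the deposited counts were not normalized. Per the labels' protocols, Trizol-extracted RNA went into SMARTER mRNA-seq kits. Per the submitters' processing notes the tools were TopHat, HISAT2 and edgeR, with no version or role. Those notes give hg19, a human build, for tables of mouse symbols, so the build behind the counts is not established. Strand use in counting is not stated in any source used here.

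Groups came from the sample titles, and 0 count columns were left unused. Lines of a symbol were summed. All members had 1 line in tissue, and 17 had up to 6 lines in culture, where a read counted in several lines would enter the sum more than once. For tissue, edgeR 4.0.16 under R 4.3.3 was run on all 7 libraries (filterByExpr by group, TMM, quasi-likelihood test), with Benjamini-Hochberg adjustment over 15523 genes and a threshold of 0.05. The method was tested on simulated data with changes of at least 2-fold, which does not cover smaller changes or members below the count filter. The SE beside an edgeR log2 fold change is its absolute value divided by the square root of the F statistic of the test. Tissue levels are TMM-scaled CPM. Culture levels are CPM of the library total. With 1 library per group, a member was counted when its CPM + 1 differed at least 2-fold and 1 library of the pair reached 1 CPM, and CPM ratios have exact 95% intervals that condition on the total of both counts. Culture values have no test. Tissue and culture tables were never tested together. Between replicate tissue libraries the chi-square per gene was 15.0 to 56.1, well above sampling noise, and each was kept as its own sample.

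The alternatives were DESeq2 1.42.0, other size factors, no count filter, the largest line of a symbol, the replicate block, each tissue library left out, and for culture another pseudocount, TMM scaling, a higher minimum and a 4-fold threshold. Values in every library are given for 13 representatives of the roles, the 3 members of lowest p in tissue and the 3 highest and 3 lowest ratios of each culture comparison. The members, the lists and the motif words were chosen with earlier results of these data known.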

Additional observations from a re-analysis of the deposited data

Results flagged for a closer look

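In the tissue libraries Mcm2 of N+F library 2 stood at 5.81 TMM-scaled CPM, far above the other 3 N+F libraries, at 2.61 to 2.96. Such a gap was looked for among the 4 N+F libraries in 43 members and was found in 1, where chance gives about 1 in 20.

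In culture, values of N+F over the amyloid beta control had opposite signs in hippocampal and cortical glia, with 1 library in each, and the difference between regions was not tested. The 11 replication and nucleotide genes had a median log2 ratio of 0.59 in hippocampal and -0.29 in cortical glia, against 0.12 and -0.16 over all genes. Ccnd1 had 0.45 in hippocampal and -1.50 in cortical glia, Mcm3 0.38 and -0.79, Mcm5 0.40 and -1.03, Mcm7 0.70 and -0.33, and Kif11 0.51 and -0.91. Beside them stand the collagens of the cortical N+F library, with Col1a1 at 2894 CPM against 47.0 CPM in its amyloid beta control, its oligodendrocyte markers, summing to 471 against 172 CPM, and the Nr4a2 levels of 488 CPM in hippocampal and 36.9 CPM in cortical N+F glia, and their part was not tested.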

How the results depend on the processing

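In tissue 0 members were called by edgeR under every alternative run, and by DESeq2. Over all genes, 1 higher and 16 lower in edgeR became 68 and 77 with DESeq2, 2 and 27 with no filter, and 0 and 0 with the replicate block, which used numbers 1 to 3 and left out N+F library 4. The numbers did not pair the libraries (same-numbered r of -0.00, -0.08 and 0.13). With 1 library left out, 0 to 1 genes were called higher and 0 to 28 lower. Signs turned, all uncalled, for Ccne1 (-0.02), at 0.079 in the replicate block and -0.12 to 0.070 with 1 library left out, for Mcm2 (0.14), at -0.22 (without N+F library 2) to 0.26, and for Kif11 (0.18), at -0.057 (without control 1) to 0.34. The cause of these changes was not tested.

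In culture, N+F over the amyloid beta control had 4, 8 and 13 members higher (both regions, hippocampal, cortical) with a pseudocount of 0.25 CPM and 2, 2 and 18 with TMM scaling, which left 1 lower in cortical glia. At 10 CPM 1 was higher in hippocampal, 2 in cortical glia and 1 lower in cortical glia. At 4-fold 0 were higher in any of these and 0 lower in cortical glia. With the largest line 2 were higher in both regions, 7 in hippocampal glia, and 1 lower in cortical glia. The amyloid beta control over untreated had 10, 12 and 10 members higher at 10 CPM, with 1 lower in cortical glia, and 6, 10 and 7 at 4-fold, with 0 lower in both regions or either. With the largest line 1 was lower in cortical glia. Between regions, 4-fold left 1 member higher with N+F and 0 in the amyloid beta control. In the amyloid beta control 4 were higher with a pseudocount of 0.25 CPM, and the largest line gave 2 higher and 1 lower. Untreated, 1 was lower with that pseudocount, and the largest line gave 4 higher and 1 lower. Depth limits the 14 members below the tissue filter.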

Other observations

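A few members stood far higher in tissue than in untreated glia, on CPM scales of 2 tables that were made separately and were not tested together. Tyms, thymidylate synthase, averaged 170 CPM in control hippocampus against 1.80 CPM in the untreated cultures, Cenpf 54.2 against 1.53 CPM, Ccna2 42.9 against 2.68 CPM, and E2f1 119 against 10.7 CPM. Cdk1, whose product partners cyclin A2, had 0.477 CPM in control hippocampus. Of 43 members 5 were over 10-fold higher in that setting, the fifth being Kif20a. Ccna2 and Kif20a overlap a coding gene on the opposite strand.

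The intermediate filament gene Nes of neural progenitors had 435 CPM in hippocampal N+F glia against 395 CPM in the amyloid beta control, and 167 against 316 CPM in cortical glia. Other markers of the same list went the other way, such as Igfbpl1, at 38.8 against 86.7 CPM in hippocampal and 85.7 against 44.2 CPM in cortical glia. Of the 8 neural progenitor and neuroblast markers 5 were positive and 2 negative in hippocampal glia, and 3 positive and 5 negative in cortical glia. Nes was named after its values were seen, and each value rests on 1 library.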
